A study of Homo sapiens with 14 samples.

Results

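The genes described here are those of the proteins of the cytosolic ribosome, taken by name from the gene counts of 14 RNA-seq libraries of SCC23 cells, an established line of head and neck squamous cell carcinoma (HNSCC). A gene was a member if its symbol was RPL or RPS followed by a number, with or without the letters A, X or L, or if it was RPSA, RPLP0, RPLP1 or RPLP2. The rule found 84 of 59471 gene names. They comprised 43 genes of the large subunit, 31 of the small subunit, the 3 genes of the stalk and 7 paralogs whose symbols end in L or L1. S6 kinase genes and the 1272 names of ribosomal protein pseudogenes were left out.

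The study compared SCC23 cells carrying KMT2D (KMT2D-WT) with KMT2D knockout cells (KMT2D-KO), kept in glucose (+Glc) or deprived of it for 6 h (-Glc). KMT2D is a histone methyltransferase that marks enhancers. KMT2D-KO cells were 2 lines, KO1 and KO2, from cells transfected with a plasmid carrying Cas9, GFP and a guide RNA to KMT2D. KMT2D-WT cells had received a guide to LacZ, so all groups had been through Cas9 transfection. With and without glucose alike, 3 libraries came from KMT2D-WT cells and 4 from KMT2D-KO cells, over 2 experiments. No single-cell cloning was described, so each line is 1 edited population, and libraries of a line are repeats of that population.

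A ribosome is built from a large and a small subunit, each a folded ribosomal RNA covered by proteins that are needed in about equal numbers. The mRNAs of these proteins share a terminal oligopyrimidine (TOP) start, a C followed by a run of C and T at the first base, through which their translation follows mTOR activity and nutrient supply. LARP1 binds such starts and the mRNAs that carry them. Many copied pseudogenes of these short, abundant mRNAs lie across the human genome, which makes their reads hard to place.

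The starts of the genes, as annotated by RefSeq on GRCh38.p14, showed this shared feature, which the choice of members did not use. Of the 84 members, 67 had an entry, and 47 of them (70.1%) had a C followed by at least 4 of C or T on the gene's own strand at a listed start, against 727 of 10529 other expressed genes (6.9%). Within 10 bases of the start the run was found for 54 members (80.6%) and for 35.0% of the other genes. The sequences below run from 12 bases before the listed start to 18 bases from it, 5′ to 3′ on the gene's strand, with the pyrimidine run in capitals. The first 4 are members with a large difference in KMT2D-KO cells or a role in the comparisons below, the fifth is the paralog of RPL22, and the last 3 are paralogs in which no run was found.
RPS14, minus strand, chr5:150449722-150449751: ccccctcccaCTCTCTCTTTCCggtgtgga
RPL22, minus strand, chr1:6199578-6199607: ttcgctcaCCTCCCTTTCTaactccgctgc
RPL13A, plus strand, chr19:49487596-49487625: caaaaCCTCCTCCTTTTCCaagcggctgcc
RPS6, minus strand, chr9:19380219-19380248: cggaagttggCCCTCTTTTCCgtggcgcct
RPL22L1, minus strand, chr3:170870178-170870207: ggccgtagCTTCCTCTCTgctctcgcggcc
RPL7L1, plus strand, chr6:42879604-42879633: aagtgcggcgccgtagctaggagcggacgc
RPS27L, minus strand, chr15:63157460-63157489: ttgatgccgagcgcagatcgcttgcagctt
RPL26L1, plus strand, chr5:172958868-172958897: ggggcggcggccacaaacccgcaggcacgc

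RPL22L1 was the only one of 5 paralogs with an entry in which the run was found. Of the other letters searched on both strands of 300 bases, CCGGAAG was found for 35.8% of members and 21.9% of the other expressed genes, CACGTG for 7.5% and 12.3%, and TATAAA for 10.4% and 8.5%. These matches describe letters in a window and no measured start or binding. The 54 members with the run within 10 bases and the 12 tested members without it had similar KMT2D-KO differences. Their median log2 fold changes over KMT2D-WT were 0.51 and 0.53 with glucose, and 0.88 and 0.90 without it. No test was run on these medians.

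Total counts were between 15669154 and 62968057 per library. The 4 libraries of experiment 2 with glucose were sequenced as pairs and both mates were counted, and the other 10 were single reads. In experiment 2 the glucose condition and the kind of library therefore cannot be told apart, and statements on glucose rest on experiment 1. The 2 KMT2D-KO libraries of experiment 2 without glucose, labelled KO1 and KO2, differed little more than counting error gives (chi-square of 1.78 per gene), as did the 2 KMT2D-WT libraries of that condition (1.71), while other pairs of a group had 25.94 to 82.97. They are called here by their labels, and results are also given with each such pair summed. Pseudogene names held 5.63 to 5.81 counts per 100 counts of the members in experiment 1, 3.79 to 4.10 in experiment 2 with glucose and 10.38 to 11.0 in experiment 2 without it. KMT2D mRNA was 266 to 279 CPM (counts scaled to a common library size by TMM) in KMT2D-WT cells with glucose, 182 and 184 in KO1 and 323 and 373 in KO2, so its level did not separate the genotypes. Without glucose it was 231 to 239 in KMT2D-WT cells, 19.9 in KO1 of experiment 1 and 145 to 190 in the other KMT2D-KO libraries. The study verified the knockout by genomic sequencing and by western blot of KMT2D protein, which mRNA levels do not measure. All 7 squamous markers reached 1 CPM, and their summed level was 835 to 1635 CPM in KMT2D-WT and 584 to 1649 CPM in KMT2D-KO cells with glucose, and 1137 to 1597 and 1641 to 3022 CPM without it. In KMT2D-KO cells 1 of 6 tested was lower with glucose (KRT14, -1.74), against 11.7% of all genes. Without glucose 4 of 7 were higher, against 25.7% of all genes, among them KRT5 (2.86) and KRT17 (2.16). KRT5 in experiment 1 without glucose was at 22.9 CPM in KMT2D-WT, 15.4 in KO1 and 225 in KO2, so KO1 was not higher. Of 4 endothelial markers 1 reached 1 CPM, with summed levels of 0.83 to 1.56 and 0.64 to 4.70 CPM with glucose and 0.56 to 1.27 and 2.19 to 3.48 CPM without it, where CDH5 was higher (2.24). None of 5 leukocyte markers reached 1 CPM in any library (summed 0 to 0.29 CPM). The summed level of 6 fibroblast markers was 5.76 to 7.09 CPM in KMT2D-WT and 12.5 to 26.7 CPM in KMT2D-KO cells with glucose, and 3.26 to 5.58 and 7.37 to 14.04 CPM without it. With glucose all 3 that could be tested were higher in KMT2D-KO cells, COL3A1 (5.24), COL1A2 (2.72) and COL1A1 (1.26), against 13.0% of all genes. COL3A1 and COL1A2 were at 0 CPM in experiment 1 with glucose. Without glucose only COL1A1 could be tested, and it was higher (1.33). The part of these markers in the results was not tested.

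The members took a larger share of all counts in KMT2D-KO than in KMT2D-WT cells in each experiment and glucose condition. In experiment 1 with glucose the share was 4.86% in KMT2D-WT, 6.33% in KO1 and 7.11% in KO2. In experiment 1 without glucose it was 5.45%, 9.70% and 8.17% in the same order, and the KMT2D-KO values were the highest of all libraries. In experiment 2 the KMT2D-WT shares were 3.57% and 3.67% with glucose and 3.16% and 3.20% without it, and the KMT2D-KO shares were 4.73% and 5.12% with glucose and 4.78% and 5.06% without it. The groups did not overlap within an experiment. Between experiments they did, with KMT2D-WT of experiment 1 above some KMT2D-KO libraries of experiment 2. A share is relative to the rest of the library, and more ribosomal protein mRNA per cell and less of other mRNA cannot be told apart.

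**Figure D1:**
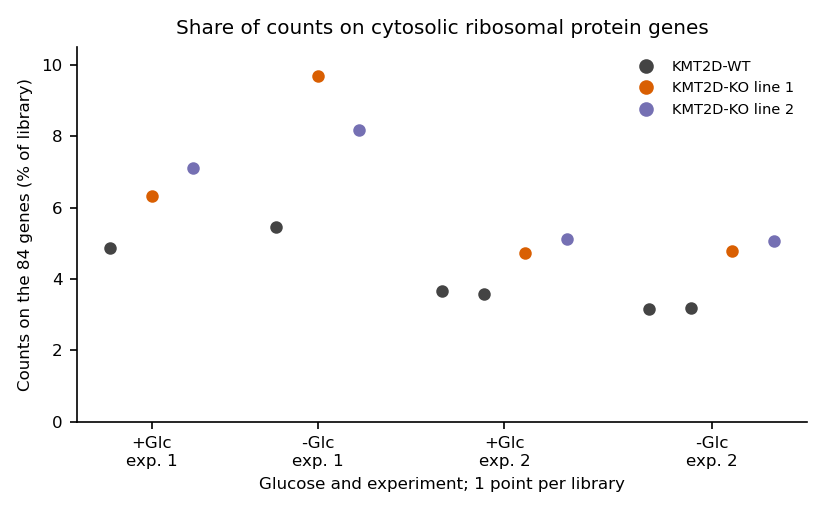
Share of each library's counts (%) on the 84 genes, 1 point per library, by glucose condition and experiment and coloured by line. Within each of the 4 blocks both KMT2D-KO points lie above every KMT2D-WT point, and the largest gap, 5.45% against 8.17% and 9.70%, is in experiment 1 without glucose.

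In cells kept in glucose, 63 of the 82 members that could be tested were higher in KMT2D-KO cells and none was lower (edgeR quasi-likelihood test with experiment as a covariate, Benjamini-Hochberg adjusted p under 0.05). Over all 20423 genes tested, 13.0% were called higher and 11.7% lower. The members' log2 fold changes had a median of 0.51, against 0.02 over all genes, and ranged from -0.21 to 1.28. The count of 82 leaves out RPL3L and RPL10L, whose counts were too low in every group. Higher members were 36 of 43 of the large subunit, 24 of 31 of the small subunit, 1 of 3 of the stalk and 2 of 5 paralogs. By experiment, 78 of the 82 were above KMT2D-WT in both, with a median difference of 0.50 in experiment 1 and 0.50 in experiment 2. In the fit 80 of the 82 were above 0, against 10577 of the 20423 genes.

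RPL22, a large-subunit protein that the ribosome can work without, had the largest difference. Its level was 18.2 CPM in KMT2D-WT, 37.6 in KO1 and 50.0 in KO2 of experiment 1, and 26.2 and 23.4 in KMT2D-WT, 54.2 in KO1 and 66.6 in KO2 of experiment 2. All KMT2D-KO libraries were above all KMT2D-WT libraries (log2 fold change 1.28 ± 0.13 (SE), adjusted p = 0.000171). RPS14, which is needed for the small subunit to mature, was at 685 CPM in KMT2D-WT, 1370 in KO1 and 1539 in KO2 of experiment 1, and at 324, 267, 660 and 729 in the same order in experiment 2. It overlapped between experiments and not within them (1.18 ± 0.10, adjusted p = 6.72e-05). The other large differences were those of RPL37 of the large subunit (0.97 ± 0.11) and of RPS2 (0.92 ± 0.10) and RPS20 (0.91 ± 0.09) of the small subunit. RPS2 shares 25.9% of its exonic bases with other genes. The smallest differences that passed the test were 0.30 ± 0.08 for RPS6, the small-subunit protein that S6 kinases phosphorylate, 0.33 ± 0.09 for RPL36, 0.35 ± 0.09 for RPS15, 0.39 ± 0.09 for RPL19 and 0.40 ± 0.09 for RPL4.

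Members were also named for their role, and differences between them were not tested. The stalk, made of RPLP0, RPLP1 and RPLP2, recruits the factors that drive elongation. RPLP2 was higher (0.44 ± 0.11), while RPLP0 (0.18 ± 0.20, adjusted p = 0.588) and RPLP1 (0.37 ± 0.12, adjusted p = 0.0571) did not pass the test. RPL5 and RPL11 carry a small ribosomal RNA into the large subunit and bind MDM2 when assembly is disturbed. Both were higher, by 0.43 ± 0.10 and 0.51 ± 0.12. RPL10, one of the last proteins to join the large subunit, was higher by 0.65 ± 0.12, and 50.5% of its exonic bases are shared with other genes. RPSA (0.60 ± 0.13), RPS4X (0.70 ± 0.08) and RPS27A, which is made as a fusion with ubiquitin (0.70 ± 0.10), were higher too. RPL41, the shortest ribosomal protein, did not pass the test (0.44 ± 0.18, adjusted p = 0.121).

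The count depended on experiment 1's single KMT2D-WT library, and without it 28 members were called, with the median at 0.45 to 0.58 over all 7 omissions of 1 library. Without a term for experiment 4 members were called, and 14 by DESeq2.

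In cells deprived of glucose, 75 of 82 members were higher in KMT2D-KO cells and none was lower, against 25.7% higher and 24.8% lower over the 16782 genes tested. The median log2 fold change was 0.90 (all genes, 0.00), and the members ranged from -0.19 to 1.56. By class, 40 of 43 members of the large subunit, 29 of 31 of the small subunit, 3 of 3 of the stalk and 3 of 5 paralogs passed the test. In both experiments 80 members were above KMT2D-WT, with medians of 0.92 in experiment 1 and 0.89 in experiment 2. In the fit 81 of 82 were above 0, against 8414 of the 16782 genes. With the close pairs summed 66 members were higher.

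RPL22 and RPS14 again had the largest differences. RPL22 was at 20.2 CPM in KMT2D-WT, 51.2 in KO1 and 59.3 in KO2 of experiment 1, and at 29.7 and 27.7 in KMT2D-WT and 88.7 and 92.7 in KMT2D-KO cells of experiment 2 (1.56 ± 0.08, adjusted p = 4.27e-05). RPS14 was at 804 CPM in KMT2D-WT, 2573 in KO1 and 2034 in KO2 of experiment 1, and at 454 and 449 against 1144 and 1266 in experiment 2 (1.44 ± 0.12, adjusted p = 0.000163). Both genes had every KMT2D-KO library above every KMT2D-WT library. RPS2 (1.41 ± 0.10), RPS20 (1.32 ± 0.10) and RPL37 (1.31 ± 0.11) followed. The 5 members with the largest differences were thus the same in both glucose conditions, in separate libraries of the same 2 KMT2D-KO lines. The genes around RPS14, RPS2, RPS20 and RPL37 were higher with glucose too, as given below. The smallest differences that passed were 0.31 ± 0.08 for RPL23A, 0.43 ± 0.08 for RPL7L1, 0.45 ± 0.14 for RPS23, 0.50 ± 0.09 for RPL35 and 0.63 ± 0.07 for RPLP0.

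All 3 stalk genes passed the test without glucose, RPLP1 at 0.73 ± 0.07 and RPLP2 at 0.91 ± 0.07. RPL5 (0.66 ± 0.17), RPL11 (1.00 ± 0.06), RPS6 (0.78 ± 0.09), RPSA (1.07 ± 0.07), RPS4X (1.14 ± 0.09), RPS27A (1.04 ± 0.08) and RPL10 (0.92 ± 0.15) were higher. The 7 members that did not pass included RPL31 (0.52 ± 0.21), RPL41 (0.59 ± 0.24), RPL39L, RPS7, RPL36A and RPS27L. RPL31, RPS7 and RPL36A were chosen for naming after their values were seen. Over the 82 members, the differences with and without glucose had a Pearson correlation of 0.74, against 0.79 over the 16460 genes tested in both, and the points share the 2 lines. Altogether 61 members were higher in both conditions, 14 without glucose alone, 2 with glucose alone and 5 in neither. Of all genes 13.0% were called higher with glucose and 25.7% without it. Their share called higher in both was not taken.

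The members higher with glucose alone included RPL36A, whose counts were among the lowest, at 4.68 to 12.3 CPM. Leaving out 1 library gave 70 to 77 members higher without glucose, and without KO1 of experiment 1, whose KMT2D and LARP1 levels stood apart, 77 were higher and 2 lower. Without a term for experiment 27 were higher. Scaling by library size alone moved the median of all genes by -0.25 and the share of calls that were higher from 50.9% to 30.2%, with 70 members higher.

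**Figure D2:**
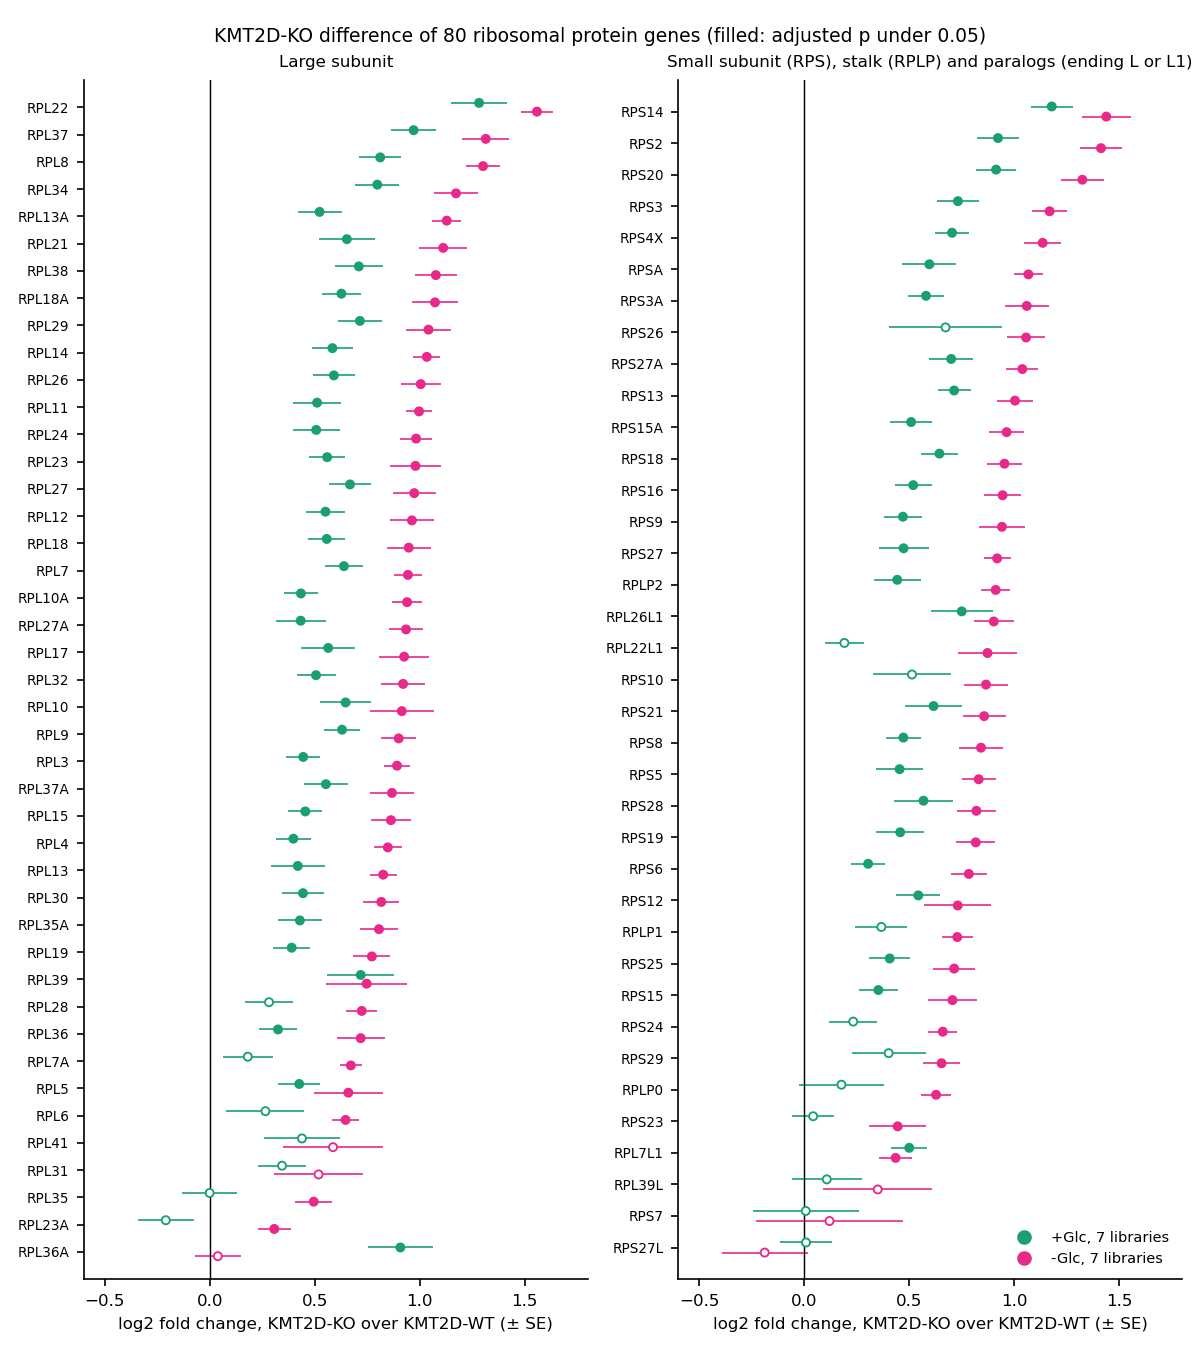
log2 fold change of KMT2D-KO over KMT2D-WT (± SE) for 80 of the 82 members tested, with glucose (green) and without (pink), ordered by the value without glucose within each panel. Filled points have an adjusted p under 0.05. Nearly all points lie right of 0, RPL22 and RPS14 lead their panels, and most pink points lie right of the green ones.

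The lines differed in how far the members moved. With glucose, the median log2 difference from KMT2D-WT was 0.38 in KO1 and 0.58 in KO2 in experiment 1, and 0.38 and 0.58 in experiment 2. A direct comparison of KO2 with KO1 called 38 members higher and 4 lower in KO2 (median 0.25), against 7.70% and 7.57% of the 21850 genes tested. Without glucose the median difference from KMT2D-WT was 1.03 in KO1 and 0.82 in KO2 in experiment 1. In experiment 2 it was 0.83 and 0.93 in the libraries labelled KO1 and KO2, which were both nearer KO2 in line-specific genes. KRT5 was at 15.4 CPM in KO1 and 225 in KO2 of experiment 1 without glucose, and at 180 and 185 in that pair. In the same order VIM was at 564, 205, 270 and 276 CPM, and PDCD2 at 149, 59.6, 72.3 and 74.5. Statements on KO1 without glucose therefore rest on experiment 1, and the order of the lines there was not tested.

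RPS7, a small-subunit protein that also binds MDM2, differed most in the direction opposite to the rest. It was at 779 and 853 CPM in KO1, 454 and 460 in KO2, and 599 to 676 in KMT2D-WT cells with glucose, so the KMT2D-WT level lay between the lines (KO2 against KO1, -0.82 ± 0.08, adjusted p = 9.12e-08). In experiment 1 without glucose it was 1378 CPM in KO1, 546 in KO2 and 645 in KMT2D-WT. In experiment 2 without glucose the libraries labelled KO1 and KO2 had 211 and 238 CPM, and KMT2D-WT had 254 and 243. The other members lower in KO2 were RPL39 (-0.47 ± 0.09), RPL31 (-0.33 ± 0.08) and RPL5 (-0.25 ± 0.08), of the large subunit, where RPL31 is named because the count is small. RPLP0 went the other way, at 1083 and 1114 CPM in KO1 and 1692 and 1849 in KO2, with KMT2D-WT at 1223 to 1323 in between (0.70 ± 0.08, adjusted p = 8.67e-07). KMT2D itself was higher in KO2 than in KO1 (0.94 ± 0.08).

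**Figure D3:**
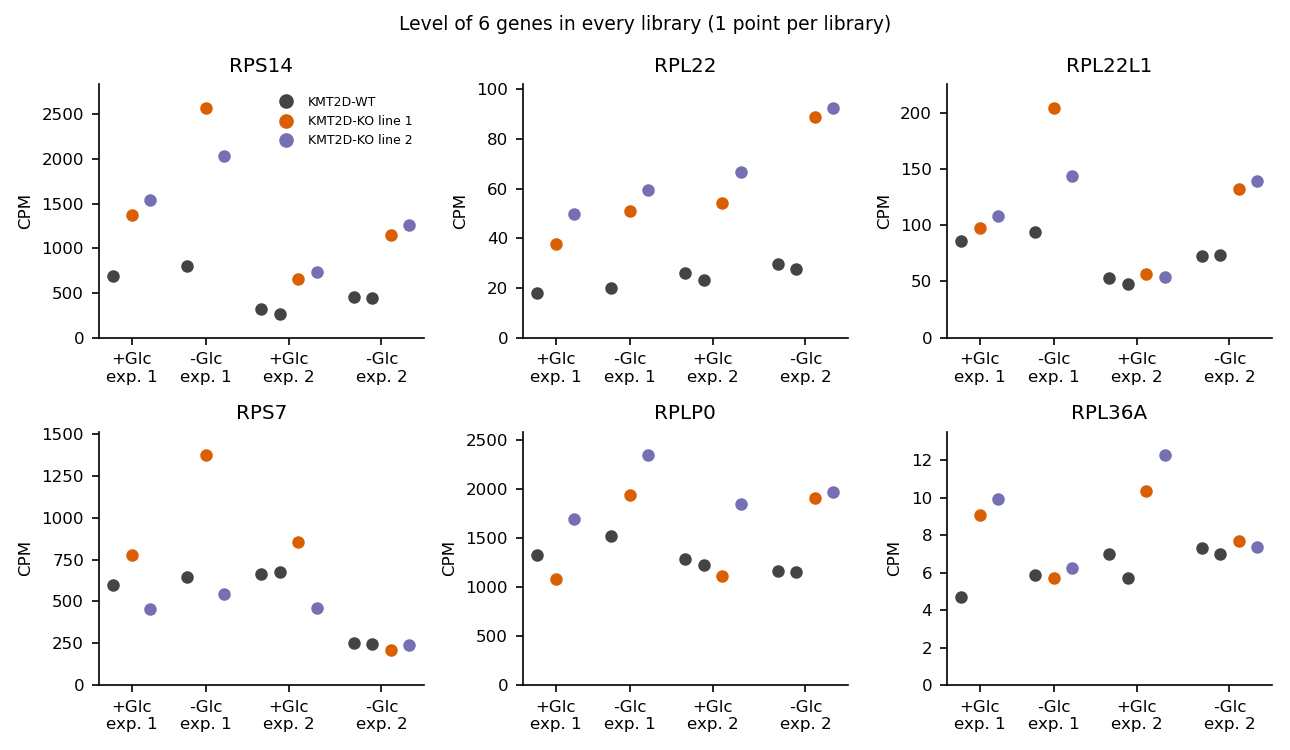
Level (CPM) of RPS14, RPL22, RPL22L1, RPS7, RPLP0 and RPL36A in each of the 14 libraries, by glucose and experiment and coloured by line. RPS14 and RPL22 are higher in both lines, RPS7 and RPLP0 differ between the lines in opposite directions with glucose, RPL22L1 separates the genotypes most without glucose, and RPL36A only with it.

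**Figure D4:**
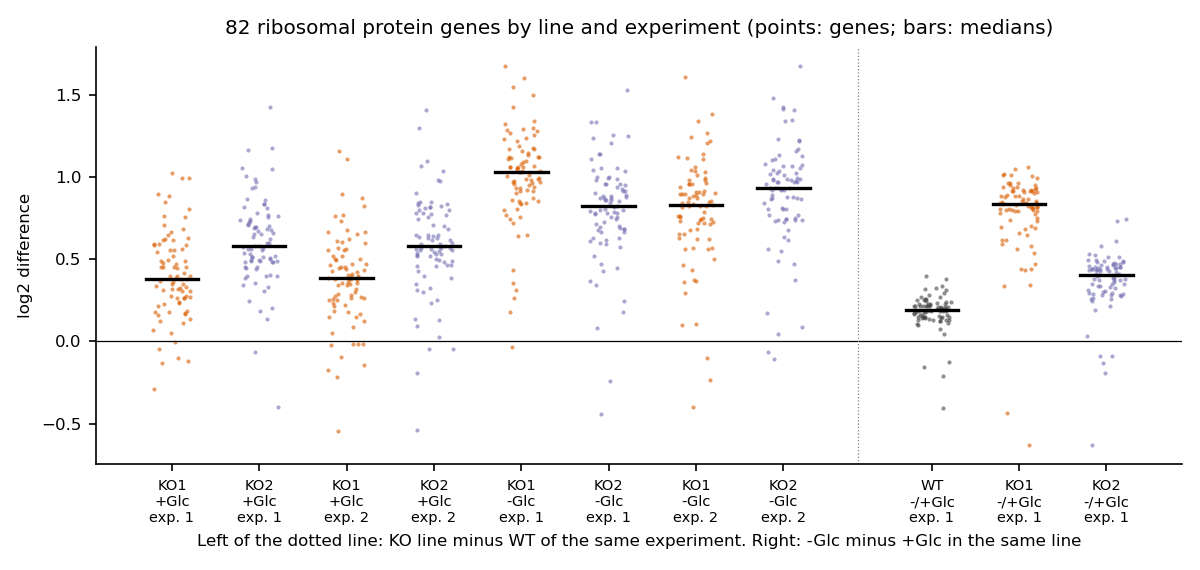
log2 difference of the 82 members by line and experiment. Left of the dotted line each KMT2D-KO line is set against KMT2D-WT of the same experiment, and right of it cells without glucose are set against cells with glucose in the same line of experiment 1; bars are medians. The medians are 0.38 to 0.58 with glucose and 0.82 to 1.03 without it, and the change on glucose deprivation is 0.19 in KMT2D-WT, 0.84 in KO1 and 0.40 in KO2.

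The members' differences also varied with where the genes lie. For each of 80 members with at least 10 other expressed genes within 2500000 bases, the median log2 fold change of those genes was taken, over a median of 39 genes with glucose. Between KO2 and KO1 the member's value and that of its neighbours had a Pearson correlation of 0.80, and between KMT2D-KO and KMT2D-WT 0.70 with glucose and 0.42 without it. On glucose deprivation in experiment 1 it was 0.07. These are descriptions over genes that share libraries and, in part, neighbours.

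The log2 fold changes of the members lay above those of their surroundings all the same. With glucose 79 of 80 members exceeded the median of their neighbours, by a median of 0.48, and without glucose 78 of 80, by 0.84. RPS14 lies on chromosome 5 among genes with a median of 0.61 beside its own 1.18, while the neighbours of RPL22 on chromosome 1 had a median of -0.06. Those of RPS20 (0.91 with glucose), RPS2 (0.92) and RPL37 (0.97) were at 0.61, 0.59 and 0.53. RPL23A on chromosome 17, the lowest member with glucose at -0.21, lay among genes at -0.61. RPS23 on chromosome 5 (0.04) lay among genes at -0.59, and RPL35 on chromosome 9 (-0.00) among genes at -0.38. RPL36A on chromosome X (0.91 with glucose) had neighbours at 0.82. Between KO2 and KO1 the neighbours of RPL39 were at -0.49, those of RPL31 at -0.59 and those of RPL5 at -0.41, and RPS7 had only 6 neighbours, too few to enter, with a median of -0.92. Copy number was not measured here, and its part in these differences was not tested.

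**Figure D5:**
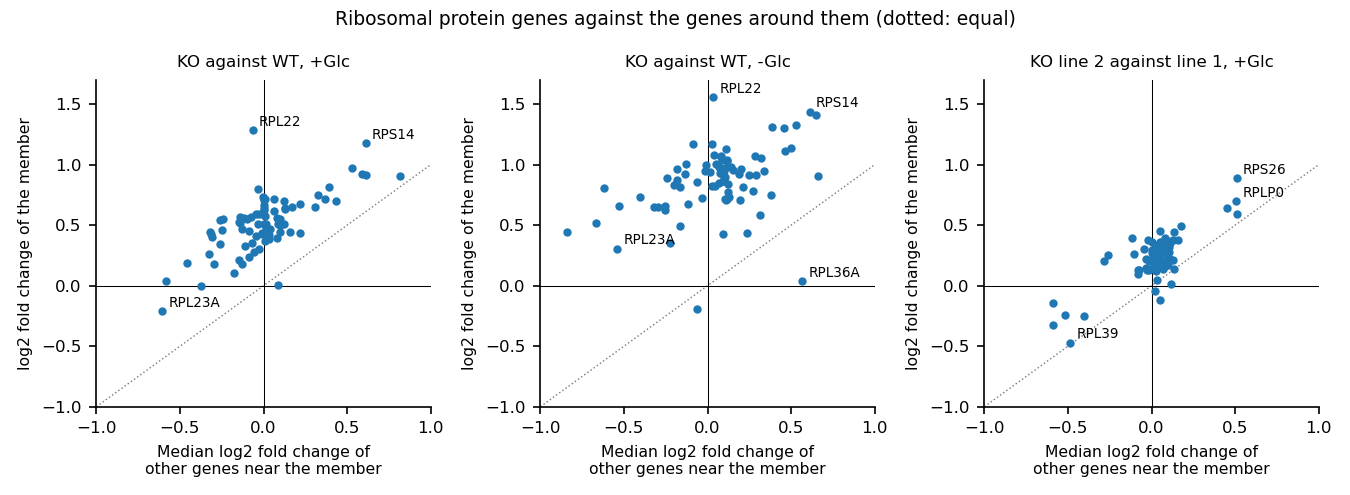
log2 fold change of each member against the median of other expressed genes within 2500000 bases, for KMT2D-KO over KMT2D-WT with and without glucose and for KO2 over KO1 with glucose; the dotted line marks equal values. Most points lie above the line, by a median of 0.48, 0.84 and 0.22, and in the panel of KO2 over KO1 RPL39, RPL31 and RPL5, all below 0, have neighbours below 0.

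Glucose deprivation was read in experiment 1, where all 6 libraries were made alike. No member passed the test (edgeR, line as a covariate), against 0.523% of 16066 genes called higher and 1.15% lower. The smallest adjusted p of a member was 0.0574, and DESeq2 called 5 members. The direction was shared: 80 of 82 values were above 0, against 7719 of the 16066 genes tested. In all 3 lines 76 members were above 0, and 67 had an unadjusted p under 0.05, as had 3174 of all genes. The median log2 difference was 0.46 (all genes, -0.02). Of all genes called 31.2% were higher, and 43.8% when scaled by library size alone. By line it was 0.19 in KMT2D-WT, 0.40 in KO2 and 0.84 in KO1.

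RPS6 went from 1435 to 1634 CPM in KMT2D-WT, from 1723 to 3085 in KO1 and from 1895 to 2704 in KO2 (0.49 ± 0.17, adjusted p = 0.144). RPLP0 went from 1323 to 1516, from 1083 to 1939 and from 1692 to 2349 in the same order (0.48 ± 0.17, adjusted p = 0.147). Each line had its higher value without glucose, for both genes. The other role genes had values of the same size, 0.46 ± 0.17 for RPLP1, 0.46 ± 0.17 for RPLP2, 0.45 ± 0.16 for RPSA, 0.46 ± 0.17 for RPL11, 0.44 ± 0.17 for RPL10, 0.42 ± 0.17 for RPS4X, 0.34 ± 0.16 for RPS27A and 0.32 ± 0.16 for RPL5. The SD over the 82 log2 values was 0.16, against 0.55 over all genes, which include many with low counts. An SD for genes as abundant as the members was not taken. Leaving out either KMT2D-WT library gave 14 members higher, and leaving out either KO1 library gave 2.

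With both experiments fitted together, 19 members were higher and none lower in KMT2D-WT cells without glucose (all genes, 8.13% and 8.46%), and 44 were higher and 2 lower in KMT2D-KO cells (13.9% and 16.0%). The medians were 0.02 and 0.42. These counts hold the difference between paired and single libraries. Those in KMT2D-KO cells also hold the pair of experiment 2 without glucose that was nearer KO2. In KMT2D-WT cells no member was higher once any 1 of the 4 libraries of experiment 2 was left out, and without either library of experiment 1, 24 were higher and 31 lower. Of all calls in KMT2D-KO cells, 46.5% were higher, and 20.4% when scaled by library size alone. In experiment 2 alone the KMT2D-WT log2 differences ranged from -4.79 for RPL41 to 2.58 for RPL26, while in experiment 1 they were -0.41 and 0.22 for these genes. The 39 members with over 10 named pseudogenes had a median of -0.28 in experiment 2 and 0.20 in experiment 1, and the 43 with fewer had 0.09 and 0.19.

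Whether the KMT2D-KO difference depended on glucose was tested in a fit of all 14 libraries, which holds the difference between paired and single libraries in experiment 2. In it 32 of 82 members had a larger KMT2D-KO difference without glucose and 1 a smaller one, against 4.80% and 6.52% of 18678 genes, and the median interaction was 0.41 (all genes, -0.00). In that fit 78 members were above 0, against 9309 of the 18678 genes. Within experiment 1, where all libraries were made alike, the median was 0.42, with 79 of 82 members above 0. There the median difference from KMT2D-WT was 0.38 with glucose and 1.03 without it in KO1. In KO2 it was 0.58 and 0.82. Within experiment 2 the median interaction was 0.40, where glucose and the kind of library cannot be told apart. Both KMT2D-KO libraries of experiment 2 without glucose were nearer KO2, so the lines may be unevenly spread over glucose there and in the fit. In the fit RPL22L1, the paralog of RPL22, had the largest interaction of the members that passed the test (0.71 ± 0.15, adjusted p = 0.0127). RPL13A (0.63 ± 0.13), RPL10A (0.53 ± 0.10) and RPL27A (0.53 ± 0.15), all of the large subunit, followed among those that passed. Among the role genes RPS6 (0.50 ± 0.11), RPL11 (0.51 ± 0.14), RPLP2 (0.49 ± 0.13) and RPS4X (0.46 ± 0.10) passed the test.

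RPL36A was the single member with a smaller difference without glucose (-0.84 ± 0.19, adjusted p = 0.0141). It was at 4.68 CPM in KMT2D-WT and 9.09 and 9.92 in KMT2D-KO cells of experiment 1 with glucose, and at 5.85, 5.70 and 6.22 without it. In experiment 2 it was at 6.97 and 5.73 against 10.4 and 12.3 with glucose, and at 7.29 and 6.98 against 7.69 and 7.37 without it. The genotypes were apart with glucose and overlapped without it. The call was lost without either KMT2D-WT library of experiment 1 and with the close pairs summed. The gene shares 22.4% of its exonic bases with other genes, and its counts were low.

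The number of members in this interaction rested on single libraries. Leaving out 1 library gave 3 to 44, with 3 without KMT2D-WT of experiment 1 in -Glc, 9 without it in +Glc, 20 without KO1 of experiment 1 in +Glc and 11 without KO1 of experiment 2 in +Glc. It gave 11 and 13 without the KMT2D-WT libraries of experiment 2 in +Glc, 6 and 9 without those in -Glc, and 9 and 7 without the libraries labelled KO1 and KO2 of experiment 2 in -Glc. With the close pairs summed no member was called higher or lower. Scaling by library size alone moved the median of all genes by -0.23 and left 2 members larger and 1 smaller, with the members' median still 0.42 above that of all genes. Of all interaction calls 42.4% were larger, against 9.9% with that scaling and 58.9% with offsets for gene length.

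The 7 paralogs are copies with their own genes, some of them, such as RPL3L and RPL10L, used in few tissues. Levels between genes are given as CPM per kilobase of merged exons. RPL22L1 was above its partner, with group means of 30.4 for RPL22L1 and 4.85 for RPL22 in KMT2D-WT and 38.6 and 11.2 in KMT2D-KO cells with glucose, and 39.0 against 5.55 and 75.5 against 15.6 without it. RPL22 has 22 named pseudogenes and shares 10.2% of its exonic bases with other genes, while RPL22L1 has 0 named pseudogenes and shares 0%. The part of this in their order was not tested. The order of RPL26 and RPL26L1 differed between kinds of library. RPL26 was above RPL26L1 in the 10 single-read libraries, for example at 147 against 41.0 in KMT2D-WT of experiment 1 with glucose, and below it in the 4 libraries counted by both mates, at 19.5 to 32.1 against 40.8 to 87.3. RPL7L1 (21.6 and 26.9), RPL39L (4.62 and 5.31) and RPS27L (1.28 and 1.36) were, by group means with glucose, below RPL7 (180 and 228), RPL39 (94.5 and 131) and RPS27 (288 and 404). RPL3L (at most 0.244 in a library) and RPL10L (at most 0.974) were near 0.

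The paralogs followed their partners in part. With glucose, RPL22L1 was not called (0.19 ± 0.09, adjusted p = 0.169), beside RPL22 at 1.28, and without glucose it was higher by 0.87 ± 0.14. Its level without glucose was 93.9 CPM in KMT2D-WT, 205 in KO1 and 144 in KO2 of experiment 1, and 72.6 and 73.9 against 132 and 139 in experiment 2, with no overlap. RPL26L1 (0.75 ± 0.15 with glucose, 0.90 ± 0.09 without) and RPL26 (0.59 ± 0.10 and 1.00 ± 0.10) were both higher in both conditions. RPL7L1 was higher by 0.50 ± 0.09 and 0.43 ± 0.08, and RPL7 by 0.64 ± 0.09 and 0.94 ± 0.07. RPL3 (0.45 ± 0.08 and 0.89 ± 0.06), RPS27 (0.47 ± 0.12 and 0.92 ± 0.07) and RPL39 (0.72 ± 0.16 and 0.75 ± 0.19) were higher. Their copies RPL39L (0.11 ± 0.17 and 0.35 ± 0.26) and RPS27L (0.01 ± 0.12 and -0.19 ± 0.20) did not pass the test in either condition.

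Of 4 other genes of the same ribosome, which the naming rule leaves out, 3 were higher with glucose and 3 without it. Over all genes 13.0% and 25.7% were higher. RACK1, a scaffold on the small subunit, was at 2276 CPM in KMT2D-WT and 4593 and 4680 in KMT2D-KO cells of experiment 1 with glucose, and at 1348 and 1255 against 2706 and 2711 in experiment 2 (1.05 ± 0.08 with glucose and 1.47 ± 0.10 without). FAU, which encodes a ribosomal protein fused to a ubiquitin-like protein, was higher by 0.53 ± 0.10 with glucose and by 0.82 ± 0.11 without. RPL36AL, a working copy of RPL36A, was not called (-0.23 ± 0.10 and 0.01 ± 0.09).

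Genes of the mitochondrial ribosome, 77 of which were tested, moved in the same direction with smaller medians. With glucose 41 (53.2%) were higher and 2 lower (median 0.33), and without glucose 54 (70.1%) and 1 (0.52). Over all genes 13.0% were higher and 11.7% lower with glucose, and 25.7% and 24.8% without it. Of 26 other translation genes that carry TOP starts or are counted with them, 13 (50.0%) were higher and 3 lower with glucose (0.38), and 20 (76.9%) and 2 without (0.69). They included VIM, an intermediate filament gene (1.67 ± 0.46 and 1.53 ± 0.38), NACA of the nascent chain complex (0.89 ± 0.18 and 1.12 ± 0.07), and the elongation factor subunit EEF1D (0.78 ± 0.11 and 1.02 ± 0.07). The lower ones with glucose, about as frequent as among all genes, included the initiation factor subunits EIF3L (-0.74 ± 0.08) and EIF3D (-0.69 ± 0.08). The lists of this and the next paragraph were written with earlier results of these data known.

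Of 14 genes that act on ribosomal protein mRNAs, 5 were higher and 1 lower with glucose, and 5 and 2 without it. The shares higher, 35.7% in both, stand beside 13.0% and 25.7% of all genes, and nothing particular to the list is read from them. MYC, a transcription factor that drives ribosomal protein genes, was at 113 CPM in KMT2D-WT, 199 in KO1 and 191 in KO2 of experiment 1 with glucose, and at 181, 707 and 839 without it. It was higher in KMT2D-KO cells by 0.81 ± 0.07 with glucose and by 2.12 ± 0.07 without it, and higher without glucose in experiment 1 (1.53 ± 0.26, adjusted p = 0.0339). EIF4EBP1, a repressor of cap-dependent translation, was higher (0.69 ± 0.10 and 1.23 ± 0.07), and the related EIF4EBP2 was lower (-0.53 ± 0.08 and -1.06 ± 0.09). LARP1 was higher with glucose (1.06 ± 0.09) and was not called without it (0.49 ± 0.28, adjusted p = 0.182). Without glucose LARP1 was at 1080 CPM in KMT2D-WT, 721 in KO1 and 1835 in KO2 of experiment 1. In experiment 2 it was at 954 and 937 in KMT2D-WT against 1546 and 1514 in KMT2D-KO cells. MLST8, a subunit of the mTOR complexes, was higher (0.82 ± 0.08 and 1.04 ± 0.07), and RPTOR was lower without glucose (-0.52 ± 0.09).

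Of 18 genes for chaperones and assembly or surveillance factors of ribosomal proteins, 4 were higher and 2 lower with glucose (median 0.01), and 5 and 4 without it (0.09). The shares higher, 22.2% and 27.8%, stand beside 13.0% and 25.7% of all genes and are not read as a result about the list. The assembly factors TSR2 (0.43 ± 0.09 and 0.64 ± 0.06), BYSL (0.41 ± 0.09 and 0.74 ± 0.08) and NOB1 (0.40 ± 0.11 and 0.88 ± 0.06) were higher in both conditions. HEXIM1, an inhibitor of transcription elongation, was lower in both (-0.35 ± 0.10 and -1.62 ± 0.13), as was RIOK2 (-0.41 ± 0.12 and -0.51 ± 0.11), a kinase of small-subunit maturation.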

How the data were processed

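Per the labels and the study's methods, polyadenylated RNA was sequenced and mapped with HISAT2 to GRCh38. Per the file headers, the authors counted reads on genes with featureCounts 2.0.3 on Ensembl 102 gene names, without strand. The deposited values are raw counts, with the merged exon length beside them, used only for levels per kilobase. The headers record primary alignments, the methods unique ones. Names of genes that share reads (pseudogenes, overlapping genes) are uncertain.

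The quasi-likelihood test of edgeR 4.0.16 (R 4.3.3) was run on these counts after TMM scaling. Low genes were dropped by filterByExpr, set to at least 10 counts, and p-values were adjusted by Benjamini-Hochberg over all genes tested. Experiment was a covariate, which the study's methods do not name. It was included because genotypes are spread unevenly over experiments; differences between experiments correlated between genotypes (0.90 with glucose and 0.73 without). Labels do not say that libraries are separate cultures, so p-values measure the spread between libraries. Scripts were tested on simulated counts. Within-experiment differences are log2 of mean CPM plus 0.5.

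Named genes were role genes, paralogs and their partners, the 5 members with the largest and smallest called differences, and up to 5 genes of each list. Members and lists were chosen with earlier results of these data known. Alternatives were DESeq2 1.42.0, other scalings, no filter, length offsets, no covariate, single experiments, close pairs summed, both-mate counts halved, pseudogene counts added (chosen after seeing the data), and each library left out. A few genes that the naming rules would give are not reported here.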

Additional observations from a re-analysis of the deposited data

Results flagged for a closer look

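Among 142 groups of 4 KMT2D-KO libraries examined, 1 library lay far from the others in 6. Chance gives about 1 in 20 if all 4 are repeats of the same kind. That rate does not apply here, as the 4 came from 2 experiments and 2 lines. Those of experiment 2 without glucose were also nearly alike. In KMT2D-KO cells without glucose, KO1 of experiment 1 had RPL5 at 2185 CPM (others 1301 to 1431) and RPL22L1 at 205 CPM (others 132 to 144), and its EIF4B was low, at 230.1 CPM (others 279 to 288). KO2 of experiment 1 had RPLP0 at 2349 CPM (others 1903 to 1971) and NACA at 633 CPM (others 535 to 550.2), and its EIF4EBP2 was low, at 60.2 CPM (others 66.0 to 67.0).

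In experiment 2 glucose and the kind of library cannot be told apart, and both KMT2D-KO libraries without glucose were nearer KO2 in line-specific genes. By the interaction test over both experiments, 32 members had a larger KMT2D-KO difference without glucose. Those named in the text or among the role genes had log2 values of 0.71 for RPL22L1, 0.63 for RPL13A, 0.53 for RPL10A and 0.53 for RPL27A, and 0.51 for RPL11, 0.50 for RPS6, 0.49 for RPLP2, 0.47 for RPL3, 0.46 for RPS4X and 0.44 for RPL26. RPL15 (0.43), RPS20 (0.43), RPL19 (0.41) and RPL18 (0.41) also passed, and RPL36A had -0.84.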

How the results depend on the processing

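In KMT2D-KO against KMT2D-WT cells, the members' median stayed above 0 under every alternative run, and no alternative called a member lower with glucose. With glucose the number higher was 4 without the replicate block for experiment, 14 by DESeq2 without it, 1 in experiment 1 alone, 30 in experiment 2 alone and 28 to 67 with 1 library left out. Without glucose it was 27 without the replicate block and 0 in experiment 1 alone, and the number lower was 2 in experiment 2 alone and 0 to 2 with 1 library left out. The median without glucose was 1.09 without the replicate block, 1.13 by DESeq2 without it and 0.64 by library size alone.

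For glucose deprivation in KMT2D-WT cells, the number higher was 0 without the replicate block and with close pairs summed, 12 by library size alone, 30 by DESeq2 and 0 to 24 with 1 library left out. The number lower was 6 by DESeq2, 31 in experiment 2 alone and 0 to 31 with 1 library left out, and the median then was -0.058 to 0.065. In KMT2D-KO cells the number higher was 1 without the replicate block and 0 in experiment 1 alone, and 30 to 42 with 1 library left out. The number lower was 0 without the replicate block, with close pairs summed and in experiment 1 alone, 1 without a filter and with pseudogenes added, 21 in experiment 2 alone and 0 to 2 with 1 library left out. The median was 0.22 by library size alone, 0.59 in experiment 1 alone, 0.26 in experiment 2 alone and 0.35 to 0.50 with 1 library left out. In experiment 1 the number higher was 2 with RLE scaling and with length offsets, 10 without a filter, 5 by DESeq2 and 0 to 14 with 1 library left out, and the median then was 0.28 to 0.60.

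For the interaction the number larger was 0 without the replicate block and with close pairs summed, 2 by library size alone, 52 with length offsets and 3 to 44 with 1 library left out. The number smaller was 0 without the replicate block, without a filter and with close pairs summed, and 0 to 1 with 1 library left out.

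Of the single genes, none that had passed the test changed sign. With glucose RPLP0 had -0.04 to 0.33 with 1 library left out, RPL39L -0.007 in experiment 2 alone and -0.008 to 0.21 with 1 library left out, and RPS27L -0.044 by library size alone, -0.011 without a filter, -0.046 in experiment 2 alone and -0.047 to 0.062 with 1 library left out. KMT2D had 0.072 with length offsets, 0.041 in experiment 2 alone and -0.33 to 0.18 with 1 library left out. Without glucose RPL36AL had -0.24 by library size alone, -0.19 with length offsets, -0.035 in experiment 2 alone and -0.045 to 0.041 with 1 library left out. Causes were not tested, except that single experiments and omissions have fewer libraries.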
